A study of Mus musculus with 12 samples.

Results

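The 9 genes described here are Ccn1, Ccn2, Ankrd1, Amotl2, Lats2 and Ajuba, which respond to the transcriptional coactivators YAP and TAZ or act on them, together with the coactivators themselves, Yap1 and Wwtr1 (the gene of TAZ), and their DNA-binding partner Tead1. They are named by the pathway, were chosen with earlier results of these data known, and were matched by symbol to the Ensembl genes of the count table. All 9 are among its 24187 genes, and all 9 are among the 22581 that passed the filter on low counts. Their messenger RNA was measured by bulk RNA sequencing in the livers of 12 mice, each deposited as a separate sample. The control group held 3 untreated mice. The vehicle group held 5 mice given 350 mg/kg acetaminophen (APAP, paracetamol), a drug whose overdose kills hepatocytes, and then PBS. The hAAM group held 4 mice given the same dose of APAP and then human alternatively activated macrophages, which were grown from blood monocytes with CSF1 and then exposed to IL-4 and IL-13. The study's methods describe mice of 10 to 12 weeks and of either sex, with the strain written as C57BL/6 J for the animals in general and as C57BL6/JOlaHsd for the injury, fasted before an intraperitoneal injection of APAP, and the cells were given intravenously once injury was established. The methods name a higher dose of APAP as well, the dose above is that of the sample labels, and the labels do not give the age, sex or time of collection of each liver.

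The Hippo pathway is a kinase cascade that restrains YAP and TAZ. The LATS kinases phosphorylate both proteins, which are then kept in the cytoplasm or degraded, and when the kinases are less active YAP and TAZ enter the nucleus and bind TEAD factors on the promoters and enhancers of their target genes. In the liver the pathway is known for its control of organ size, of hepatocyte and bile duct identity and of the response of stellate cells to injury, and several of its own members are target genes in a negative feedback. Bulk tissue does not tell which cells hold a transcript, and a change in the number of cells of a type cannot be told apart from a change of RNA per cell.

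TEAD factors recognise a short core motif, GGAATG, and the sequence upstream of the start site is shown for 4 members, of which Ccn1, Ankrd1 and Ajuba were the target genes that were higher in injured livers and Amotl2 the one that was lower. Each line gives the 250 bases before the RefSeq start site in GRCm38.p6, from 5′ to 3′ on the strand of the gene, with matches to the core on either strand in capitals. The gene coordinates given further below come from another annotation. In it Ankrd1 and Amotl2 start further upstream, so that their windows lie inside these coordinates.

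Ccn1, chr3:145649986-145650235, minus strand: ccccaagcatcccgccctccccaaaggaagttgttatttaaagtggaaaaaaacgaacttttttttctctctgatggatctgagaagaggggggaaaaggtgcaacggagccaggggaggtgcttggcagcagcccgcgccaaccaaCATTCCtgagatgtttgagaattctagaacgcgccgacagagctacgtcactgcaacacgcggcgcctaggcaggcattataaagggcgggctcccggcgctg

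Ankrd1, chr19:36119845-36120094, minus strand: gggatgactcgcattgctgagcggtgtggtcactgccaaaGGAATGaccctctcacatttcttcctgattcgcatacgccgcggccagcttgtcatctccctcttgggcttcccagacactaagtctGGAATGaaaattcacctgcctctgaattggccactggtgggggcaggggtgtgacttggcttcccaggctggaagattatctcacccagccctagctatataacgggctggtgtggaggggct

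Ajuba, chr14:54577662-54577911, minus strand: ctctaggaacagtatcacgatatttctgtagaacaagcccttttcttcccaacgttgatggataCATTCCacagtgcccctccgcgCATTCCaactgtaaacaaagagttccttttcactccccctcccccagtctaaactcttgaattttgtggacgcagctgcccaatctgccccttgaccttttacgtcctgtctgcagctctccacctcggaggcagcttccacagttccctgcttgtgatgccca

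Amotl2, chr9:102717554-102717803, plus strand: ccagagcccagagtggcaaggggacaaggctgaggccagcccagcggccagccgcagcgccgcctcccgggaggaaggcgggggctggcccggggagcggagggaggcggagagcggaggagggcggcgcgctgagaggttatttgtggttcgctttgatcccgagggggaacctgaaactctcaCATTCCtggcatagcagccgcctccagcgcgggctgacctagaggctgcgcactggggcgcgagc

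The RefSeq table used here held a window for 7 of the 9 members, and none for Ccn2 and Tead1. A match to GGAATG, or to CATTCC on the opposite strand, was found in the windows of 6 of these 7 genes (Ccn1, Ankrd1, Amotl2, Ajuba, Yap1 and Wwtr1). Of the 32817 windows of 250 bases in the whole table, 12.6% held one. Ankrd1 held 2 matches, which began 210 and 123 bases before the start site, and Ajuba held 2, which began 186 and 164 bases before it. The match in Ccn1 began 103 bases before the start site and that in Amotl2 65 bases before it. Neither of the 2 Lats2 windows, which also lie inside the gene coordinates given below, held the letters. None of the members' windows held an AP-1 site (TGANTCA on both strands, in 6.75% of all windows) or a CArG box, the motif of serum response factor (in 1.47%). The core was present in windows of genes that were higher and of genes that were lower after APAP, and a match in these letters is a description of the sequence only.

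Total counts per liver were between 47391650 and 74056505. Counts were scaled with TMM factors of 0.832 to 0.859 in the control livers and 0.933 to 1.14 in the injured livers, and levels are given as CPM, which are counts relative to the scaled total of the liver. Scaling by library size alone moved the median log2 fold change over every gene tested from 0.01 to 0.36 in vehicle livers and from 0.02 to 0.32 in hAAM livers against control, so that directions of small changes depend on this choice. One pair of livers stood apart. The counts of hAAM replicate 4 and vehicle replicate 3 differed by 1.42 times the variance expected from counting alone, whereas each of the other 35 pairs of injured livers differed by at least 6.94 times. These are livers of different groups, so member results against control and list counts are also given without both. The p-values measure the spread between these livers.

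Injured livers held more RNA of the secreted targets and less of Amotl2 and Yap1 than control livers, the last with a sign that turned when library size alone was used. Against control, 5 of the 9 members (Ccn1, Ccn2, Ankrd1, Ajuba and Tead1) were higher in vehicle livers at an FDR under 0.05 in edgeR's quasi-likelihood test, 2 (Amotl2 and Yap1) were lower, and Lats2 and Wwtr1 did not pass. Over all genes tested, 15.0% were higher and 14.8% lower in this comparison. In hAAM livers, 4 members (Ccn1, Ccn2, Ankrd1 and Ajuba) were higher, 2 (Amotl2 and Yap1) were lower and 3 did not pass, where 10.7% of all genes were higher and 9.96% lower. These 6 hAAM calls were 1 without control replicate 1 or hAAM replicate 1, 2 without control replicate 2 and 3 without control replicate 3, where 13.1%, 12.5%, 15.0% and 10.5% of all genes were called, and 5 without the near-identical pair (19.6%). The vehicle calls were 6 higher and 1 lower without that pair (16.0% and 14.0% of all genes). Without control replicate 1 they were 5 higher and 0 lower, where 21.5% of all genes were called and 10.5% were lower, so that neither lower call held there. Scaled by library size alone, 7 members were higher and 0 lower in vehicle livers, where 38.2% of all genes were higher and 4.92% lower, and 7 were higher and 1 lower in hAAM livers, where 29.0% were higher and 3.46% lower. Both comparisons use the same 3 control livers. The median log2 fold change of the 9 members was 0.94 in vehicle livers and 0.52 in hAAM livers, beside 0.01 and 0.02 over all genes. For 7 members the vehicle livers did not overlap the control livers, which held for 34.8% of all genes, and for 5 members the hAAM livers did not overlap them, beside 28.5% of all genes. Without the near-identical pair, a comparison of ranges added after the values were seen, this held for all 9 members in vehicle livers (42.3% of all genes) and for 5 in hAAM livers (34.1%).

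**Figure D1:**
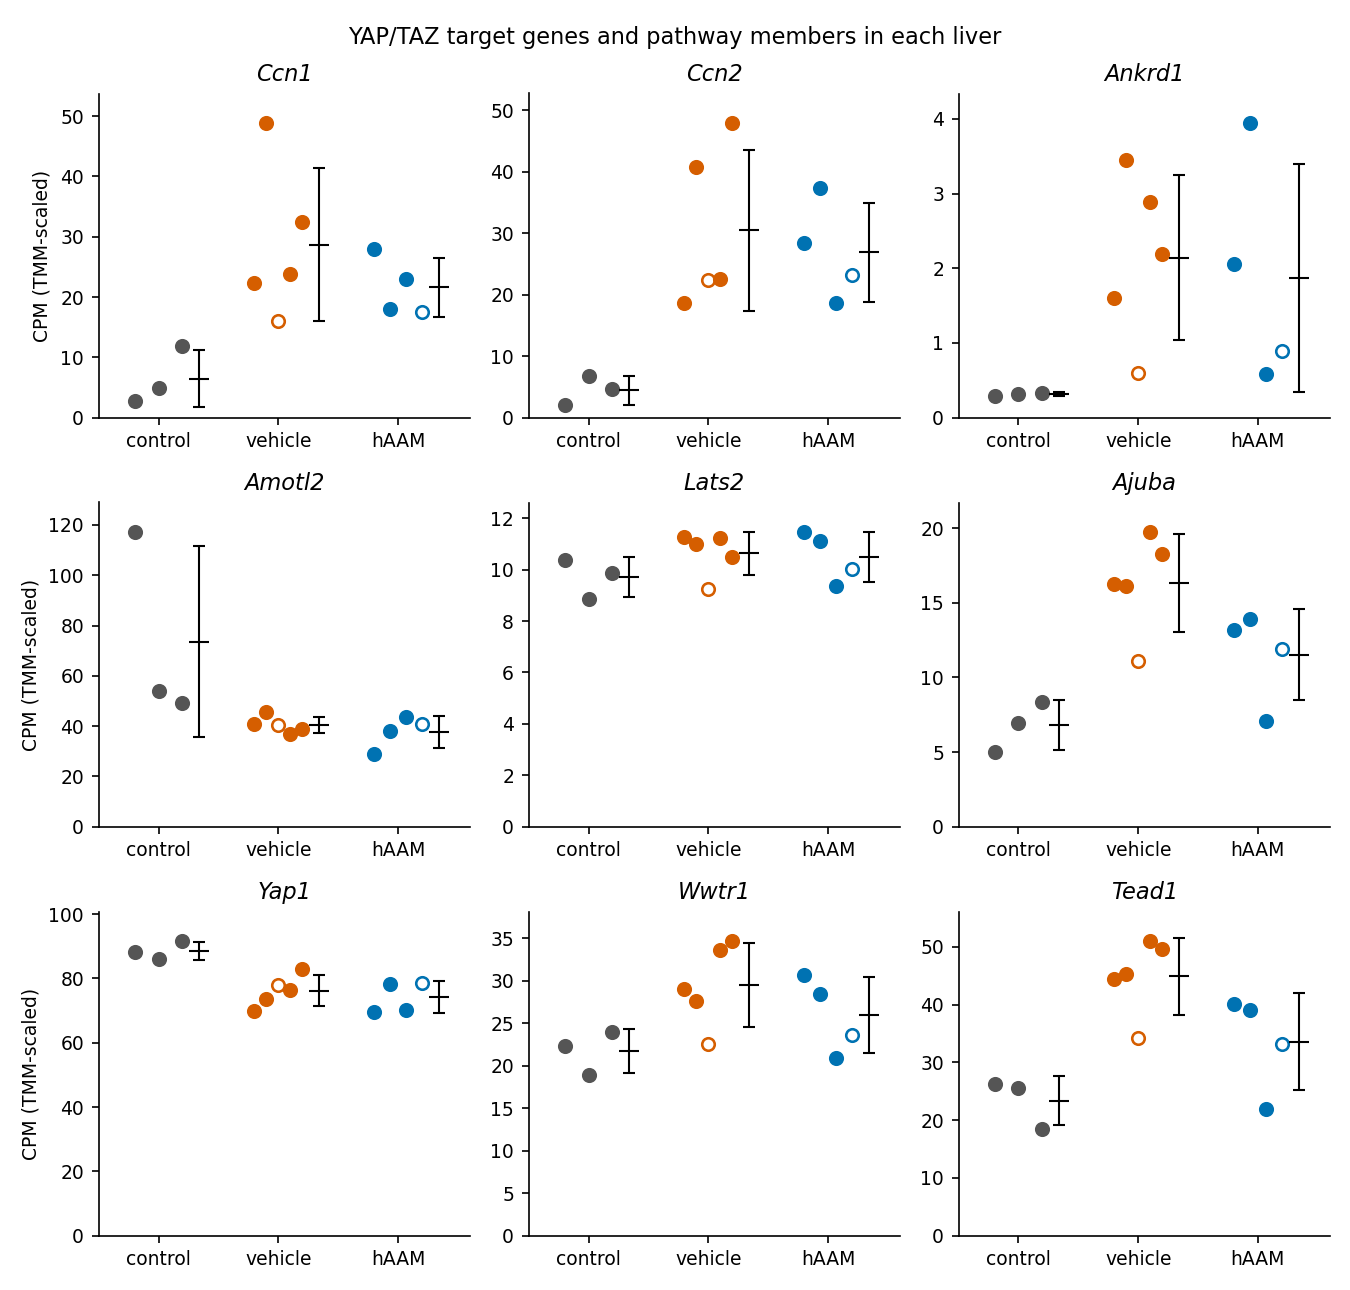
Scaled CPM of each of the 9 genes (y axis, linear, from 0) in each liver of the control, vehicle and hAAM groups (x axis), with the mean and SD of each group beside the points; open circles are vehicle replicate 3 and hAAM replicate 4. Ccn1, Ccn2 and Ankrd1 lie above every control liver in all injured livers, and for Amotl2 control replicate 1 at 117 CPM stands far above the rest.

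Ccn1 (ENSMUSG00000028195, GRCm38 chr3:145646976-145649981, minus strand), formerly Cyr61, encodes a secreted matricellular protein that binds integrins and is one of the classic YAP/TAZ targets. It was at 2.73, 4.88 and 11.8 CPM in the control livers, at 22.3, 48.9, 16.0, 23.8 and 32.5 CPM in the vehicle livers, and at 28.0, 18.0, 22.9 and 17.5 CPM in the hAAM livers. Every injured liver was above every control liver, and vehicle replicate 2 was the highest. The fold change was 4.44 in vehicle livers (log2 fold change 2.15 ± 0.46 SE, edgeR FDR 0.00534) and 3.34 in hAAM livers (log2 1.74 ± 0.47 SE, FDR 0.0224). Control replicate 3 was the highest control, and without it the log2 fold changes were 2.91 and 2.50. The hAAM call was lost without control replicate 1 (log2 fold change 1.38, FDR 0.0661), control replicate 2 (1.57, FDR 0.0763) or hAAM replicate 1 (1.60, FDR 0.056). Without the near-identical pair the log2 fold changes were 2.31 and 1.83, both called.

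Ccn2 (ENSMUSG00000019997, chr10:24595442-24598683, plus strand), also known as connective tissue growth factor, is a second secreted CCN protein, made by stellate cells and hepatocytes in injured liver and known for its part in matrix deposition. It was at 2.00, 6.72 and 4.70 CPM in control livers, at 18.6, 40.8, 22.4, 22.5 and 47.9 CPM in vehicle livers and at 28.4, 37.4, 18.6 and 23.2 CPM in hAAM livers. Again the injured and control livers did not overlap. Its fold change was 6.78 in vehicle livers (log2 2.76 ± 0.44 SE, FDR 0.0012) and 5.99 in hAAM livers (log2 2.58 ± 0.45 SE, FDR 0.00327). Both calls held when any single liver was left out, with log2 fold changes of 2.41 to 3.18 and of 2.24 to 3.01, and without the near-identical pair (2.86 and 2.65). At an FDR under 0.01 it was the member still called in hAAM livers. The annotation places an antisense transcript, Gm15270, over Ccn2, and it is not stated whether the counting used strand.

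Ankrd1 (ENSMUSG00000024803, chr19:36111961-36120099, minus strand) encodes an ankyrin repeat protein of the nucleus and sarcomere, low in healthy liver and widely used as a readout of YAP. It rested on few reads in control livers, between 15 and 20 counts, which is 0.286, 0.315 and 0.336 CPM. The vehicle livers were at 1.60, 3.45, 0.600, 2.88 and 2.19 CPM and the hAAM livers at 2.06, 3.94, 0.581 and 0.896 CPM. All injured livers were above the controls but differed widely among themselves, from 30 to 213 counts. The fold change was 6.85 in vehicle livers (log2 2.78 ± 0.70 SE, FDR 0.0116), with a 95% interval of 2.39 to 19.6, and 5.97 in hAAM livers (log2 2.58 ± 0.71 SE, FDR 0.0256), with an interval of 2.03 to 17.5. The vehicle call held when any single liver was left out (FDR at most 0.0433). The hAAM call was lost without any of the 3 controls (log2 fold change 2.52 to 2.63, FDR 0.071 to 0.076), without hAAM replicate 1 (2.53, FDR 0.0539) and without hAAM replicate 2, the highest hAAM liver (1.91, FDR 0.0664). Without the near-identical pair both were called, at log2 fold changes of 3.02 and 2.81.

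Ajuba (ENSMUSG00000022178, chr14:54567472-54577558, minus strand) is a LIM-domain adaptor that binds LATS kinases and limits their action on YAP. It was at 5.03, 6.97 and 8.38 CPM in control livers, at 16.2, 16.1, 11.1, 19.7 and 18.3 CPM in vehicle livers and at 13.2, 13.9, 7.11 and 11.9 CPM in hAAM livers. All vehicle livers were above the controls, and hAAM replicate 3 lay within their range. The fold change in vehicle livers was 2.40 (log2 1.26 ± 0.25 SE, FDR 0.00324), and it stayed called when any single liver was left out. In hAAM livers it was 1.70 (log2 0.76 ± 0.25 SE, FDR 0.049), just inside the threshold. That call was kept in 2 of the 12 fits that left out a liver, with log2 fold changes of 0.59 to 0.94 over the 12 fits and an FDR of up to 0.164. It was also lost without the near-identical pair (0.75, FDR 0.0561), where the vehicle call was kept.

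Amotl2 (ENSMUSG00000032531, chr9:102716672-102733418, plus strand) belongs to the angiomotin family, which binds YAP and holds it at cell junctions and in the cytoplasm, and is itself a YAP target. It was at 117, 54.1 and 49.2 CPM in control livers, at 40.8, 45.6, 40.5, 36.8 and 38.7 CPM in vehicle livers and at 28.9, 38.1, 43.6 and 40.6 CPM in hAAM livers. All 9 injured livers were below all 3 controls, the direction opposite to that of Ccn1 and Ccn2, and control replicate 1 was far above the other controls. The log2 fold change was -0.86 ± 0.23 (SE, FDR 0.0169) in vehicle livers and -0.96 ± 0.25 (FDR 0.0193) in hAAM livers. Without control replicate 1 it was -0.35 (FDR 0.0868) and -0.45 (FDR 0.0577), so neither call held, and the hAAM call was also lost without hAAM replicate 1 (-0.85, FDR 0.0565). With library size alone it was -0.52 (FDR 0.0812) in vehicle livers and -0.66 (FDR 0.0489) in hAAM livers, and without the near-identical pair -0.86 and -0.99, both called.

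Lats2 (ENSMUSG00000021959, chr14:57689662-57758388, minus strand) encodes one of the kinases that phosphorylate YAP and TAZ and is induced by them in turn. Its levels were 8.87 to 10.4 CPM in control livers, 9.25 to 11.3 CPM in vehicle livers and 9.37 to 11.5 CPM in hAAM livers, and the groups overlapped. The log2 fold change against control was 0.13 in vehicle livers (95% interval -0.08 to 0.35, FDR 0.325) and 0.11 in hAAM livers (-0.11 to 0.33, FDR 0.466), so a rise or fall beyond the ends of these intervals was not seen. With library size alone, which lifts all genes in the injured livers, it was 0.48 and 0.42, both past the threshold, and without the near-identical pair it was 0.19 (FDR 0.168) and 0.14 (FDR 0.377). A protein-coding gene model on the same strand, Gm49361, overlaps Lats2, so reads may be shared between them.

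Yap1 (ENSMUSG00000053110, chr9:7931999-8004596, minus strand), the gene of YAP, was at 88.1, 85.9 and 91.6 CPM in control livers, at 70.0, 73.7, 77.8, 76.2 and 83.0 CPM in vehicle livers and at 69.7, 78.4, 70.1 and 78.6 CPM in hAAM livers. The injured livers were all below the controls, by a small amount. The log2 fold change was -0.22 ± 0.07 (SE, FDR 0.0423) in vehicle livers and -0.26 ± 0.08 (FDR 0.0357) in hAAM livers, and with library size alone it turned to 0.13 and 0.05, neither called. The vehicle call was kept in 4 and the hAAM call in 6 of the 12 fits that left out a liver, with FDRs of up to 0.143 and 0.124. Without the near-identical pair the log2 fold change was -0.22 (FDR 0.0672) in vehicle livers and -0.28 (FDR 0.0476) in hAAM livers.

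Wwtr1 (ENSMUSG00000027803, chr3:57455649-57575910, minus strand), the gene of TAZ, was at 22.4, 18.9 and 24.0 CPM in control livers, at 29.0, 27.6, 22.5, 33.7 and 34.7 CPM in vehicle livers and at 30.7, 28.5, 20.9 and 23.7 CPM in hAAM livers. Vehicle replicate 3 and hAAM replicates 3 and 4 lay within the range of the controls. The log2 fold change in vehicle livers was 0.44 (95% interval 0.10 to 0.78, FDR 0.0522), just outside the threshold. It passed under 8 of 12 other settings, among them DESeq2 (FDR 0.0377) and edgeR without the near-identical pair (0.53, FDR 0.0197). The 8 include a looser threshold of 0.1 in the same fit, where passing was fixed by the FDR of 0.0522. They also include library size alone, which moved the median over all genes upward. The log2 fold change in vehicle livers also passed without vehicle replicate 3 (0.52, FDR 0.0173), hAAM replicate 1 (0.44, FDR 0.0453) or hAAM replicate 3 (0.44, FDR 0.0377). In hAAM livers it was 0.25 (-0.10 to 0.61, FDR 0.292), and 0.30 without that pair (FDR 0.194). Scaled by library size alone, it was 0.80 (FDR 0.00772) in vehicle livers and 0.57 (FDR 0.049) in hAAM livers, both called.

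Tead1 (ENSMUSG00000055320, chr7:112679318-112906807, plus strand) encodes a TEAD factor that carries YAP and TAZ to DNA. It was at 26.2, 25.5 and 18.5 CPM in control livers, at 44.4, 45.4, 34.1, 51.03 and 49.6 CPM in vehicle livers and at 40.2, 39.1, 21.9 and 33.3 CPM in hAAM livers. All vehicle livers and 3 of the 4 hAAM livers were above every control. The fold change in vehicle livers was 1.92 (log2 0.94 ± 0.20 SE, FDR 0.00507), called when any single liver was left out and without the near-identical pair (1.03). In hAAM livers it was 1.44 (log2 0.52 ± 0.20 SE, FDR 0.0894), and it passed the threshold without hAAM replicate 3 (0.68, FDR 0.0131) but not without the near-identical pair (0.53, FDR 0.103). Scaled by library size alone, it was 1.29 (FDR 0.00206) in vehicle livers and 0.84 (FDR 0.0233) in hAAM livers, both called.

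**Figure D2:**
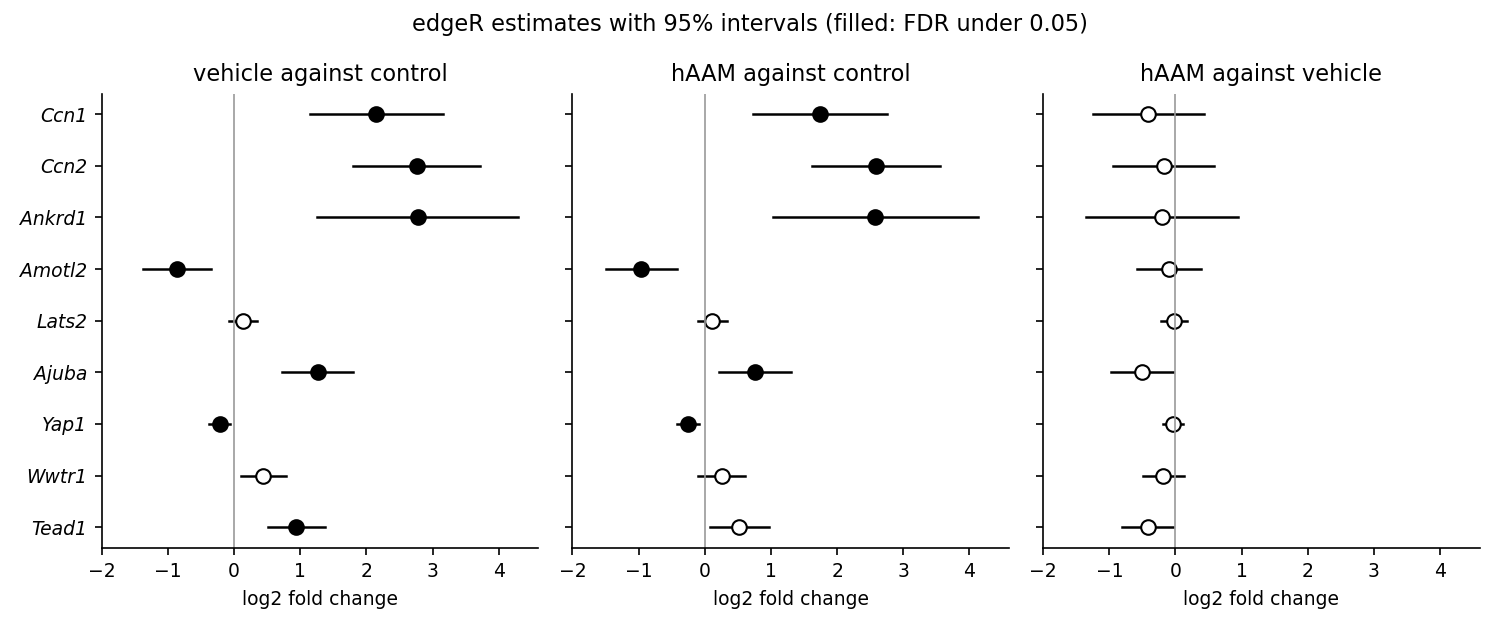
log2 fold change of each gene (x axis) for the 3 comparisons (panels), with 95% intervals from the edgeR fit of all 12 livers; filled points passed an FDR of 0.05. The intervals of Ccn1, Ccn2, Ankrd1 and Ajuba lie above 0 and those of Amotl2 and Yap1 below 0 in both comparisons with control, and no gene is filled between hAAM and vehicle.

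Compared per length of exon, the order of the members differed between control and injured livers. In control livers Amotl2 (11.7 ± 6.03 CPM per kb, SD, n = 3) and Yap1 (9.57 ± 0.309) were the most abundant, and their difference was within the spread of Amotl2. Wwtr1 (4.55 ± 0.548) and Ccn1 (3.21 ± 2.36) followed, which overlapped. Ajuba (1.86 ± 0.461), Tead1 (1.72 ± 0.316), Ccn2 (1.56 ± 0.827) and Lats2 (1.39 ± 0.11) followed, each within the larger SD of the next, although Lats2 differed from Ajuba and from Tead1 by more than their SDs, and Ankrd1 was the lowest at 0.108 ± 0.00869. In vehicle livers (n = 5) Ccn1 (14.2 ± 6.30) and Ccn2 (10.6 ± 4.56) came first, within their spread of each other, ahead of Yap1 (8.22 ± 0.521), whose distance to Ccn2 was within the spread of Ccn2. Amotl2 (6.44 ± 0.518) and Wwtr1 (6.17 ± 1.03) came next, within their spread of each other. Ajuba (4.47 ± 0.898), Tead1 (3.31 ± 0.489), Lats2 (1.53 ± 0.12) and Ankrd1 (0.743 ± 0.384) followed. The hAAM livers (n = 4) had the same order, from Ccn1 at 10.7 ± 2.43 to Ankrd1 at 0.648 ± 0.527 CPM per kb. The order without the near-identical pair was the same in both groups but for Wwtr1 (6.54) and Amotl2 (6.43) in vehicle livers, which changed places.

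The treatments were then compared with each other, which asks whether the macrophages changed the level of these genes in injured livers. None of the 9 members passed in edgeR (FDR 0.966 to 0.997) and none passed in DESeq2. Over all genes, 0% were called by edgeR, where 1133 genes had an unadjusted p under 0.05, and DESeq2 called 1 gene, or 88 without the near-identical pair, none of them a member. All 9 log2 fold changes were negative, with a median of -0.19, and 11090 of the 22581 genes tested were negative. Several members, though not Amotl2, were positively correlated with each other across the injured livers, so the common sign is not 9 separate observations. The lowest values were those of Ajuba (-0.50, 95% interval -0.97 to -0.03, unadjusted p 0.0388 in edgeR), Tead1 (-0.42, -0.81 to -0.03, unadjusted p 0.0365) and Ccn1 (-0.41, -1.25 to 0.43). Lower values at an unadjusted p under 0.05 were found for these first 2 members and for 2.38% of all genes. The hAAM and vehicle livers overlapped for all 9 members with all 12 livers in use, and 1.40% of all genes did not overlap. The near-identical pair holds one liver of each group. Without it the 3 hAAM livers were all below the 4 vehicle livers for Ajuba and Tead1 but for no other member, and 8.26% of all genes did not overlap in one direction or the other. Without the near-identical pair Ajuba was at -0.63 (FDR 0.667) and Tead1 at -0.50 (FDR 0.693). With a single liver left out, Ajuba ran from -0.61 to -0.33 and Tead1 from -0.51 to -0.26, at FDRs of at least 0.514 and 0.529.

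With all livers, 2 of the 4 hAAM livers were below every vehicle liver for Tead1, and 1 was for Ajuba. These counts rest on vehicle replicate 3, the lowest vehicle liver for both genes and one of the near-identical pair. hAAM replicate 3 was the lowest hAAM liver for Ajuba, Tead1, Wwtr1, Lats2, Ankrd1 and Ccn2. For Ccn2, 3 of the 4 hAAM livers were above the vehicle median, and its log2 fold change of -0.18 (-0.94 to 0.59) turned to 0.05 without vehicle replicate 5. The interval of Ankrd1, -1.35 to 0.95, is the widest, and those of Yap1 (-0.19 to 0.11) and Lats2 (-0.22 to 0.17) are the narrowest, so for Yap1 and Lats2 a difference of more than these bounds between the treatments was not seen, while for Ankrd1 a change of 1.93-fold upward or to 0.393 of the vehicle level lies within the interval.

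Within the injured livers some members varied together. Across the 9 injured livers, Pearson's r of log2 CPM was 0.991 for Ajuba and Tead1, 0.895 for Wwtr1 and Tead1 and 0.893 for Ajuba and Wwtr1. Ankrd1 went with Lats2 (0.869) and Wwtr1 (0.792), and the secreted pair Ccn1 and Ccn2 had an r of 0.563. Amotl2 had an r between -0.484 and 0.141 with the other members. Over the 7 livers without the near-identical pair, r was 0.994 for Ajuba and Tead1, 0.926 for Wwtr1 and Tead1, 0.914 for Ajuba and Wwtr1, 0.777 for Ankrd1 and Lats2, 0.678 for Ankrd1 and Wwtr1 and 0.507 for Ccn1 and Ccn2. These are descriptions over 9 livers, which share the scaling within each liver and hold the near-identical pair, and they carry no test.

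**Figure D3:**
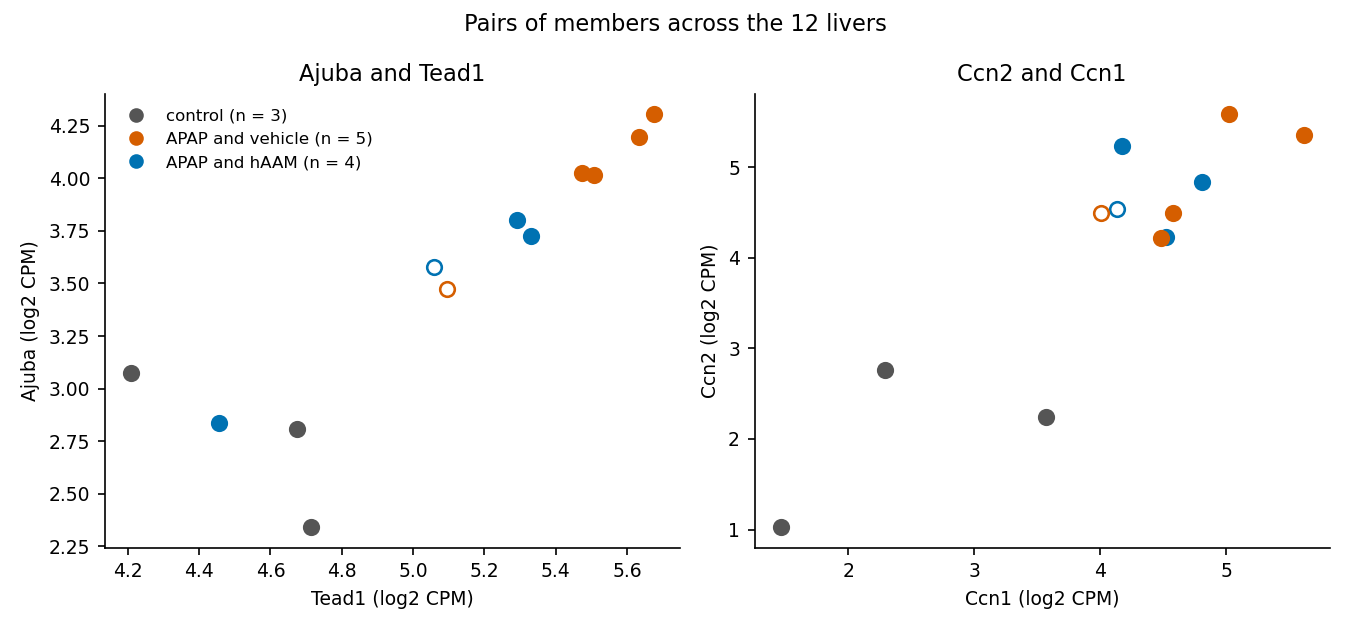
log2 CPM of Ajuba against Tead1 (left) and of Ccn2 against Ccn1 (right), one point per liver, coloured by group; open circles are vehicle replicate 3 and hAAM replicate 4. The injured livers follow a line for Ajuba and Tead1 (r 0.991 over 9 livers) and scatter more for Ccn1 and Ccn2 (r 0.563).

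The genes most like each member were sought among the 11164 genes whose mean log2 CPM was 2 or more, again over the 9 injured livers. Prkx, a protein kinase, was among the 2 closest genes of both Ajuba (r 0.983) and Tead1 (0.987), and Src, the tyrosine kinase, was the second for Tead1 (0.984). The closest to Wwtr1 was Rbms1 (0.992), an RNA-binding protein gene, and the closest to Ankrd1 were Itga5 (0.971), the fibronectin receptor subunit, and Arap3 (0.971). Yap1 was closest to Edem3 (0.969), Lats2 to Adprh (0.969), and Amotl2 to Gm13449 (0.944). For Ccn1 the closest were Tmem234 (0.958) and Pear1 (0.918), and for Ccn2 Golga2 (0.946) and Prkcsh (0.898). Over all 12 livers r was lower for all of these genes. It was -0.22 for Tmem234 and 0.81 for Pear1 with Ccn1, -0.30 for Golga2 and 0.071 for Prkcsh with Ccn2, and 0.25 for Gm13449 with Amotl2. Arap3 was at 0.69 with Ankrd1, and Itga5, Edem3, Adprh, Rbms1, Prkx and Src were between 0.84 and 0.96 with their members. Without the near-identical pair, over 7 livers, r of the genes named here ran from 0.889 to 0.991.

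Further YAP/TAZ targets were taken from a list of 17, of which 16 were tested and Foxf2 was not in the table. In vehicle livers 9 were higher than control, 1 was lower and 6 did not pass, with a median log2 fold change of 0.62, beside the 15.0% of all genes higher and 14.8% lower. In hAAM livers 6 were higher, 1 was lower and 9 did not pass, with a median of 0.51, beside 10.7% and 9.96% of all genes. Under library size alone, 14 were higher and 1 lower in vehicle livers and 12 higher and 1 lower in hAAM livers, beside 38.2% and 29.0% of all genes higher, and without the near-identical pair the counts were 9 and 1, and 6 and 1 (16.0% and 11.1% of all genes higher). Myof, a ferlin of membrane repair, rose with log2 fold changes of 2.04 (FDR 0.000968) and 2.07 (FDR 0.00189). F3, tissue factor, rose by 1.38 (FDR 0.000679) and 0.80 (FDR 0.0173), and Axl, a receptor tyrosine kinase, by 0.89 (FDR 0.00635) and 0.82 (FDR 0.0161). Ptpn14, a phosphatase that binds YAP, rose by 0.60 (FDR 0.00745) and 0.53 (FDR 0.022). The gene that fell in vehicle livers was Gadd45a (-1.57, FDR 0.0214), named here after its values were seen, and without control replicate 1 it was -0.69 (FDR 0.216). The gene that fell in hAAM livers was Nuak2, a kinase (-0.84, FDR 0.00572). All 4 rises in vehicle livers and those of Myof in hAAM livers were kept when any single liver was left out, while in hAAM livers Axl was lost without control replicate 1, F3 without control replicate 2 and Ptpn14 without any of 5 livers (lowest log2 fold changes 0.68, 0.74 and 0.45, FDR up to 0.0577, 0.0567 and 0.0743).

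The kinases and adaptors upstream of YAP were called in both directions with TMM scaling, and in the higher direction alone with library size alone. Of 20 genes, 5 were higher and 5 lower in vehicle livers, and 4 were higher and 3 lower in hAAM livers, with median log2 fold changes of 0.02 and 0.01, beside the shares of all genes of 15.0% and 14.8%, and of 10.7% and 9.96%. The counts with library size alone were 11 higher and 0 lower in vehicle livers and 10 higher and 0 lower in hAAM livers, where 38.2% and 29.0% of all genes were higher. Leaving out the near-identical pair, they were 6 and 5, and 4 and 3, beside 16.0% and 14.0%, and 11.1% and 8.49%, of all genes. Amot, the angiomotin relative of Amotl2, rose by 0.92 (FDR 0.000328) and 0.66 (FDR 0.00407), opposite to Amotl2. Map4k4, a kinase that activates LATS, rose by 1.14 (FDR 0.00418) and 0.89 (FDR 0.0225), and the atypical cadherin Dchs1 by 0.92 (FDR 0.00696) and 0.84 (FDR 0.0185). Frmd6 rose by 0.73 (FDR 0.00688) and 0.59 (FDR 0.03). The calls of Map4k4, Dchs1 and Frmd6 in hAAM livers were each lost without 3 or 4 of the 12 livers, at FDRs of up to 0.0896, 0.0761 and 0.112. The falls were small. Lats1, the paralog of Lats2, was at -0.25 (FDR 0.0085) and -0.23 (FDR 0.0207), the latter lost without control replicate 2, control replicate 3 or hAAM replicate 1 (FDR up to 0.0641), and with library size alone its sign turned (0.10 and 0.07), as did those of Mob1b in both comparisons and of Nf2 and Taok1 in vehicle livers.

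Within the TEAD family and its co-factors, of which 5 were tested and Vgll1 and Vgll2 were not in the table, Tead2 and Tead4 rose and Tead3 and Vgll4 fell in vehicle livers with TMM scaling, where 15.0% of all genes were higher and 14.8% lower. The log2 fold changes there were 1.47 (FDR 0.0114) for Tead2, 1.30 (FDR 0.00896) for Tead4, -0.69 (FDR 0.00727) for Tead3 and -0.43 (FDR 0.00971) for Vgll4, a repressor that competes with YAP for TEAD. In hAAM livers Tead2 rose (1.46, FDR 0.0196) and Tead3 fell (-0.62, FDR 0.0223), and the calls were lost without 4 and 3 of the 12 livers. Without control replicate 1 the fall of Tead3 was -0.42 in vehicle livers, still called, and -0.36 in hAAM livers, not called, and Vgll4 in vehicle livers reached an FDR of 0.0514. Neither fall was called with library size alone, at -0.34 (FDR 0.0751) for Tead3 and -0.09 (FDR 0.509) for Vgll4 in vehicle livers and -0.32 (FDR 0.124) for Tead3 in hAAM livers. The list then had 2 higher and 0 lower in vehicle livers and 3 higher and 0 lower in hAAM livers, beside 38.2% and 29.0% of all genes higher. These counts were 2 and 2, and 2 and 1, without the near-identical pair (16.0% and 14.0%, and 11.1% and 8.49%, of all genes), and with all livers in the hAAM comparison 10.7% of all genes were higher and 9.96% lower.

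Targets of serum response factor and its MRTF coactivators share several genes with YAP and respond to actin. The list of 18 genes also holds the regulators Srf, Mrtfa and Mrtfb themselves. Of the 18, 9 were higher and 1 was lower in each comparison with control, with median log2 fold changes of 0.89 and 0.79. Beside these, 15.0% of all genes were higher and 14.8% lower in vehicle livers, and 10.7% and 9.96% in hAAM livers. Library size alone gave 13 and 14 higher and 0 lower, beside 38.2% and 29.0% of all genes higher. Leaving out the near-identical pair, 10 were higher in each comparison and 1 and 0 lower, beside 16.0% and 11.1% of all genes higher and 14.0% and 8.49% lower. Acta2, smooth muscle actin, rose by 2.84 (FDR 0.00483) and 2.95 (FDR 0.00732), Fhl2 by 2.53 (FDR 0.00102) and 2.15 (FDR 0.00465), Tagln2 by 2.14 (FDR 0.00344) and 1.91 (FDR 0.0103), Actg1 by 1.41 (FDR 6.98e-05) and 1.32 (FDR 0.000207) and Zyx by 0.81 (FDR 0.00149) and 0.69 (FDR 0.0068). All of these calls held when any single liver was left out. The gene that fell was Mrtfa itself (-0.38, FDR 0.0138, and -0.37, FDR 0.0272), named after its values were seen, and its calls were lost without control replicate 2 or 3, and that in hAAM livers also without hAAM replicate 4 (FDR up to 0.0641 and 0.1). Mrtfa with library size alone was at -0.03 (FDR 0.872) and -0.06 (FDR 0.785), neither called. The remaining members of the CCN family did not follow Ccn1 and Ccn2 past the threshold with TMM scaling and all 12 livers. None of 4 passed in edgeR in either comparison. Ccn4 had 0.85 (FDR 0.177) and 0.96 (FDR 0.171), and Ccn5 had 1.84 (FDR 0.0602) and 1.61 (FDR 0.125). In each comparison 1 of the 4 passed with library size alone, where 43.2% and 32.5% of all genes did, and without the near-identical pair Ccn5 passed in vehicle livers. In none of these 5 lists did a gene pass between hAAM and vehicle in edgeR with all 12 livers.

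**Figure D4:**
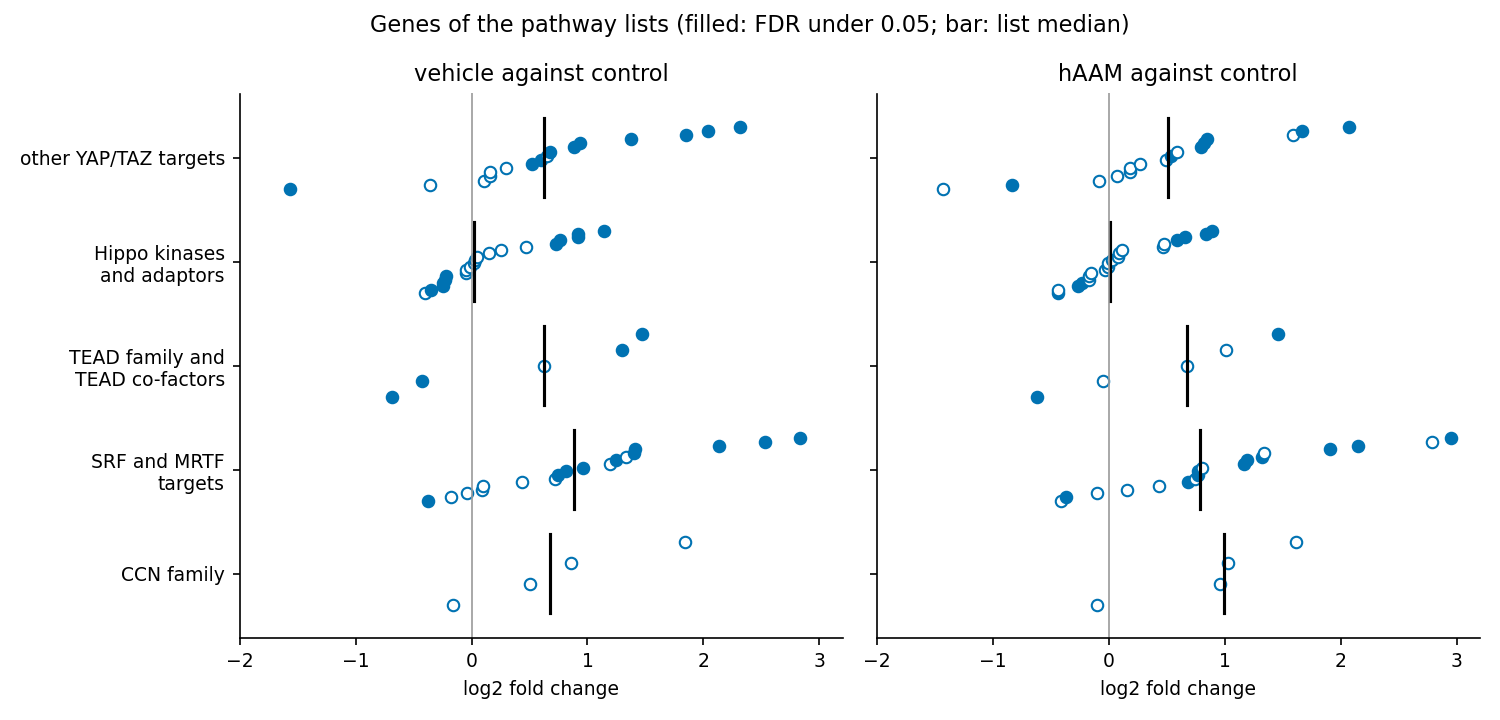
log2 fold change (x axis) of each tested gene of 5 lists (rows) in vehicle livers (left) and hAAM livers (right) against control; filled points passed an FDR of 0.05 and the bar is the median of the list. The targets of YAP/TAZ and the list of SRF, the MRTFs and their targets lie mostly above 0. The kinases and adaptors are spread to both sides with TMM scaling, with medians of 0.02 and 0.01.

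Markers of other cells were read beside these results, since YAP/TAZ targets are not limited to hepatocytes. Of 8 stellate cell and fibroblast markers, 3 were higher in each comparison with control (Des, Pdgfrb and Col1a1). The 8 summed to 338 to 499 CPM in control, 517 to 920 in vehicle and 510 to 1117 in hAAM livers. Among them, mean CPM in control, vehicle and hAAM livers was 35.1, 187 and 218 for Col1a1. It was 70.04, 182 and 221 for Col3a1, against 102, 101 and 107 for Dcn and 129, 105 and 116 for Reln. The log2 fold change was positive for 6 of the 8 in vehicle livers and for 7 in hAAM livers. Of 7 endothelial markers, 3 were higher in vehicle livers and 2 in hAAM livers, with sums of 311 to 343, 351 to 475 and 332 to 454 CPM. The log2 fold change was positive for 5 of the 7 in each comparison. Mean CPM in control, vehicle and hAAM livers fell for Clec4g (35.7, 23.9 and 22.4) and Kdr (73.9, 68.8 and 67.7), with neither called. Of 6 macrophage markers 1 was higher in each comparison, Cd68. Of 6 hepatocyte markers, Hnf4a was lower in vehicle livers and none passed in hAAM livers, and the sums were 48027 to 78590, 58160 to 86949 and 60956 to 90803 CPM, so the defining markers of the labelled tissue were present. None of 6 cholangiocyte, 5 mesothelial, 5 neutrophil, 5 lymphocyte or 5 proliferation markers passed in either comparison. Of 5 red cell genes, 4 were higher and 1 was lower in vehicle livers, and 1 was lower in hAAM livers. No marker was at 0 in a whole group, and the part of these cells in the members' changes was not tested. The shares of all genes called were 15.0% higher and 14.8% lower in vehicle livers and 10.7% and 9.96% in hAAM livers. More markers were higher with library size alone, as were 38.2% of all genes in vehicle livers and 29.0% in hAAM livers. In vehicle livers these were 6 stellate, 5 endothelial, 4 macrophage, 2 cholangiocyte, 2 proliferation and 1 hepatocyte marker, and in hAAM livers 4 stellate, 3 endothelial, 3 macrophage, 1 cholangiocyte, 3 proliferation and 1 hepatocyte marker. Hnf4a was not called lower with library size alone, where 4 red cell genes were higher and 1 lower in each comparison. Leaving out the near-identical pair, 4 stellate markers, 3 endothelial markers, the cholangiocyte marker Spp1 and 4 red cell genes were higher and the endothelial marker Clec4g was lower in each comparison, beside 16.0% and 11.1% of all genes higher and 14.0% and 8.49% lower.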

How the data were processed

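The 9 members and all gene lists were chosen with earlier results of these data known. RNA from frozen liver was depleted of rRNA and sequenced from a directional kit. Per the submitters' processing notes and the study's methods, reads were trimmed with cutadapt 4.6, aligned to GRCm38 with STAR 2.7.1a and counted per gene. The authors deposited raw counts per gene, before any normalization. The counting mode and its use of strand are not given in the sources used here. Groups came from the sample labels, and no column was left unmapped. In R 4.3.3, genes were filtered with filterByExpr and scaled with TMM, and edgeR 4.0.16 fitted one quasi-likelihood model to all 12 livers, with two-sided tests, Benjamini-Hochberg FDR over 22581 genes and a threshold of 0.05. This takes the place of the authors' DESeq2 1.38.3. DESeq2 1.42.0 was an alternative. Others were RLE scaling or library size alone, no low-count filter or at least 10 counts in every liver, and an FDR under 0.01 or 0.1. The rest changed the livers in the fit, or added a replicate block or a term for the library number range. The code was tested on simulated data. log2 CPM used a prior count of 2. Lists name, beside all members in every liver, up to 4 genes with the smallest p past the threshold per comparison with control, or else the 2 most abundant, and the 2 genes most like each member. Symbols, coordinates and exon lengths came from GENCODE M21, promoters from RefSeq.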

Additional observations from a re-analysis of the deposited data

How the results depend on the processing

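Of 648 log2 fold changes of members under other settings, 560 kept their sign and side of the threshold, 58 lost and 18 gained a call, and 12 changed sign. Those at an FDR under 0.01 or 0.1 reused the main fit, so their sign could not change. Between hAAM and vehicle the members had FDRs of 0.966 to 0.997, so staying uncalled was nearly fixed in advance. The total is therefore no measure of how firm a single call is. The sign changes were Yap1 against control with library size alone (0.129 in vehicle and 0.0501 in hAAM livers) and, between hAAM and vehicle, Ccn2 with the replicate block (0.10) and with a term for the library number range (0.11). When single livers were left out, the hAAM against vehicle values of Ccn2 ran from -0.377 to 0.0472, of Ankrd1 from -0.863 to 0.0981, of Amotl2 from -0.173 to 0.0126 and of Lats2 from -0.0671 to 0.0289. Of the members, 6 were called in hAAM livers against control, where 4666 of 22581 genes were. These became 3 with the replicate block (13.1% of all genes) and 3 with only these groups in the fit (2729 of 21492 genes). At an FDR under 0.01 they became 1 (1543 of 22581 genes), and with a liver left out 1 to 6 (2419 to 5456 genes). In vehicle livers 7 members were called (6719 of 22581 genes), and 4 at an FDR under 0.01 (3183 genes). Genes of the pathway lists called in hAAM livers (26) became 41 with library size alone, where 7340 of 22581 genes were called. They became 16 with only these groups, 7 at an FDR under 0.01 and 12 to 34 with a liver left out, beside 2729, 1543 and 2419 to 5456 of all genes. In vehicle livers the list genes called (34) became 19 at an FDR under 0.01 and 22 to 39 with a liver left out, beside 3183 and 4633 to 7197 of all genes. Between hAAM and vehicle, DESeq2 without the near-identical pair called 2 list genes, Nt5e (-0.74) and Vgll4 (0.48). In that fit it called 88 of 22435 genes, and edgeR called 0 of all genes. Replicate numbers did not pair the livers (correlations of deviations from -0.46 to 0.38 over 10 pairs, 3 above 0.1), and with the replicate block 4253 genes were called in vehicle livers instead of 6719. Of the members 5 were then higher and 0 lower in vehicle livers and 3 higher and 0 lower in hAAM livers (9.70% and 9.13%, and 6.91% and 6.20%, of all genes), and Amotl2 (-0.78, FDR 0.101, and -0.88, FDR 0.0892) and Yap1 (-0.27, FDR 0.0527, and -0.28, FDR 0.0608) were not called. The term for the library number range split the livers by the numbers in their column names. With it, 6 members were higher and 1 lower in vehicle livers, beside 3483 and 3475 of 22581 genes. In hAAM livers 4 were higher and 1 lower, beside 2107 and 2005. The cause of these changes was not tested. Counts of 15 to 20 in the controls limit Ankrd1.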
